A study of Mus musculus with 67 samples.

Results

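Motor neuron progenitors (pMN) were compared between day 5 and day 6 of differentiation in 9 of the 67 samples profiled by CaTS-ATAC, an assay in which fixed cells receive the ATAC-seq transposase, are stained for intracellular transcription factors and are sorted before sequencing. All samples labelled pMN at these days were taken. At day 5 there were 3 samples from 100 nM SAG and 2 from 500 nM SAG, and at day 6 there were 2 from each concentration. SAG is an agonist of Smoothened that activates the Hedgehog pathway. Every group came from HM1 mouse embryonic stem cells, a single line with no genetic change in the labels. All dishes had bFGF and LGK until day 2, then bFGF, CHIR99021, SB-431542 and DMH1 until day 3, and from day 3 100 nM retinoic acid (RA), with SAG in all pMN dishes. The p2 samples used below for comparison came from 10 and 100 nM SAG, the p3 samples from 100 and 500 nM and the p0-1 samples from 10 nM or no SAG, so pMN and p0-1 had no concentration in common. The sort took live cells positive for SOX2, a transcription factor of neural progenitors, so cells that had lost SOX2 were outside the gate. A dish at 100 nM SAG also gave p2 and p3 progenitors, and one at 500 nM gave p3. Replicates are independent differentiations, and at days 5 and 6 replicate 1 had a pMN sample only at day 5 in 100 nM SAG. Replicates are numbered here as in the sample titles, and the sample descriptions number those of day 5 at 500 nM and of day 6 differently. By the titles' numbers the day 6 pMN samples were replicates 2 and 3 at both SAG concentrations, so n below counts samples and not differentiations. The 9 samples had between 18619506 and 26704636 reads in elements, the consensus regions of open chromatin.

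pMN cells lie in the ventral spinal cord between the p2 and p3 domains and are defined by Olig2, a basic helix-loop-helix (bHLH) repressor. They first produce motor neurons and later oligodendrocyte precursors. Accessible elements far from genes are often enhancers, where transcription factors bind and regulate transcription, and promoters are usually open in many cell types. An element's count in a sorted population cannot tell more cells with an open element from more opening per cell.

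Between day 5 and day 6 most pMN elements that changed became more accessible. Of 32812 elements with a mean above 100 normalized counts, 1181 were higher and 320 were lower at day 6 by over 2-fold at an adjusted p under 0.01 (limma with SAG as a covariate and Benjamini-Hochberg adjustment). This is 4.57% of the elements tested, 3.6% higher and 0.975% lower. At over 4-fold, 113 elements passed (0.344%), of which 104 were higher (0.317%) and 9 lower (0.0274%). The 9 became 20 without day 6 100 nM replicate 3 and 16 without day 6 500 nM replicate 3. The samples of the days did not overlap in 8144 elements (24.8%), among them 1152 of the 1181 higher and 306 of the 320 lower ones. The median log2 fold change of all tested elements was 0.14, so an element at 0.14 moved like the typical one. With each sample centered on its median the 2-fold calls were 799 higher and 551 lower. With the replicate number as a block they were 1378 and 495. With the block and a correction for GC content and level they were 944 and 793, and with the block and centering 961 and 819. At over 4-fold the block gave 84 higher and 23 lower with that correction, and 88 and 21 with centering. The larger number of higher elements at 2-fold therefore depended in part on the scaling. Fold changes are ratios of normalized counts with 1 added, on the log2 scale, and standard errors are those of the difference of VST values, the deposited log2 scale.

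**Figure D1:**
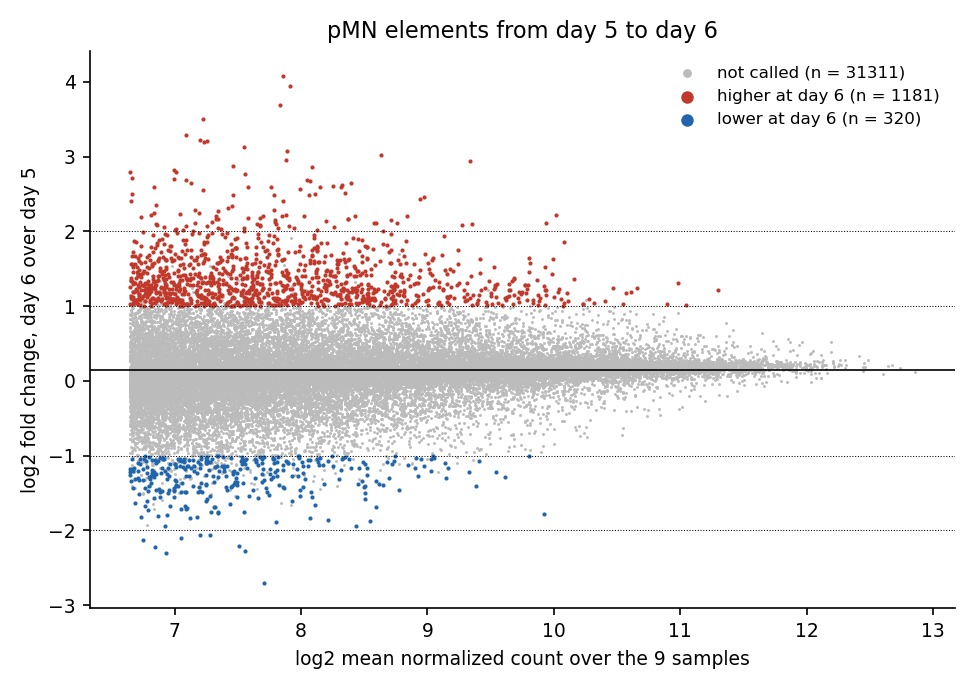
Each point is 1 of the 32812 tested elements, with the log2 mean normalized count of the 9 pMN samples on the x axis and the log2 fold change of day 6 over day 5 on the y axis. The 1181 red and 320 blue elements passed the test at over 2-fold, dotted lines mark 2-fold and 4-fold, and the solid line at the median, 0.14, lies above 0.

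The sequences below are 300 bp about the center of the 3 strongest increases and the 3 strongest decreases, and of an RA pathway element over 4-fold near Cyp26b1, which was added after its values were seen. They are read from GRCm38, the build of the deposited mm10 coordinates, on the plus strand from 5′ to 3′. Capitals mark matches, on either strand, to the E-boxes CAGATG and CATATG (bHLH factors), ACAATG (SOX factors), AGGTCA (core site of nuclear receptors, RA receptors among them) and ACATTCC (TEAD factors).
Nsmce1 element, higher at day 6 (chr7:125517197-125517496): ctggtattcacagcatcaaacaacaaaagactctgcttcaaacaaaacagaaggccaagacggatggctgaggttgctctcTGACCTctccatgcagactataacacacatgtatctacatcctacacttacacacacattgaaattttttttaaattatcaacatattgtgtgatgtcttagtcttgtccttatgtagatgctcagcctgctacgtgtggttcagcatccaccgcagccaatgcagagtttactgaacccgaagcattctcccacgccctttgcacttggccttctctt
Olfr509 element, higher at day 6 (chr7:108645968-108646267): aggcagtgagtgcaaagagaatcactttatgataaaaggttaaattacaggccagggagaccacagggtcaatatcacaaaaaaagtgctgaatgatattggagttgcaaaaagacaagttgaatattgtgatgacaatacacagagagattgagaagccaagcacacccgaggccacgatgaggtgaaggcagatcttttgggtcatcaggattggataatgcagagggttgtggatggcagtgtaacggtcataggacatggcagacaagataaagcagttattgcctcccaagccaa
Mir125b-1 element, higher at day 6 (chr9:41760832-41761131): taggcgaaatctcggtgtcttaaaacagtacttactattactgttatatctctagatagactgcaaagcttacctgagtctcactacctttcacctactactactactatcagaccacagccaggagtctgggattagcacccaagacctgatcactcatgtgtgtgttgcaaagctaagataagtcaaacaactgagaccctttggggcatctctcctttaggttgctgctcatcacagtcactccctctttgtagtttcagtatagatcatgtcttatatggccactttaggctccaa
Hs3st3b1 element, lower at day 6 (chr11:63785302-63785601): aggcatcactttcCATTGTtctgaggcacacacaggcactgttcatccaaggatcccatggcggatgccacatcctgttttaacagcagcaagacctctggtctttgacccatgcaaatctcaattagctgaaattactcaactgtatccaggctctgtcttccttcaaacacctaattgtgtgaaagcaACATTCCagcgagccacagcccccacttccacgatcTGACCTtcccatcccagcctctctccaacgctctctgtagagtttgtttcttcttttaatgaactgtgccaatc
Col4a2 element, lower at day 6 (chr8:11234485-11234784): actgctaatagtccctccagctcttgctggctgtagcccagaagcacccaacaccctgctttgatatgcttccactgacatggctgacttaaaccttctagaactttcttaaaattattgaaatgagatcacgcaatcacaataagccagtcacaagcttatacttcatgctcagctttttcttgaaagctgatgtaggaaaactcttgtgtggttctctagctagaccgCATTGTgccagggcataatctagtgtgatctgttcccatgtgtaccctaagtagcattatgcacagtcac
Chmp4c element, lower at day 6 (chr3:10378580-10378879): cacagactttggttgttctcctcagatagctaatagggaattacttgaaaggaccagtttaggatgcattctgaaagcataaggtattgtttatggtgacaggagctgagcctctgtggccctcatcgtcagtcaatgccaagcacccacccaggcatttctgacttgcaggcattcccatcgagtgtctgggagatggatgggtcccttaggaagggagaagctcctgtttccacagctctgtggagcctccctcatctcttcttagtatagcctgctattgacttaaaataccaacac
Cyp26b1 element, higher at day 6 (chr6:84640675-84640974): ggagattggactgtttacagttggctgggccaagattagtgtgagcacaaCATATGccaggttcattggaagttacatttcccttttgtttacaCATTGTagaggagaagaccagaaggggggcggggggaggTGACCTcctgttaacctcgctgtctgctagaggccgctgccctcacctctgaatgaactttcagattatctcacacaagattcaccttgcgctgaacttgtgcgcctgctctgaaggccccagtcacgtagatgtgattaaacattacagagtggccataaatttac
The Cyp26b1 window held an E-box CATATG, a SOX match and a nuclear receptor core site. The Hs3st3b1 window held SOX, TEAD and core site matches, the Nsmce1 window a core site and the Col4a2 window a SOX match, while the other windows had none of these letters.

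Over all windows, several of the 22 sets of letters searched were more frequent in higher elements than in the tested elements, and others less frequent. ACAATG was in 33.9% of the 1181 higher windows, in 30.6% of the 320 lower ones and in 17.3% of all 32812. CAGATG was in 33.4% of the higher, 23.4% of the lower and 20.6% of all windows, and CATATG in 7.54%, 3.75% and 3.7%. The core site AGGTCA was in 29.6% of the higher, 21.6% of the lower and 17.1% of all windows. The TEAD letters ACATTCC were in 11.9% of the lower windows, against 4.23% of the higher ones and 4.38% of all. Of the other E-boxes, CAGCTG was in 23.0% of the higher and 20.1% of all windows, and CAGGTG in 9.99% and 17.9%. The homeodomain letters TAATTA were in 8.55% of higher, 11.6% of lower and 5.87% of all windows, and the posterior HOX or CDX letters TTTATGG in 4.4%, 7.5% and 3.05%. The POU octamer ATGCAAAT was in 4.4% of higher, 2.19% of lower and 1.83% of all windows, the GATA letters AGATAA in 18.8%, 19.7% and 10.8%, and the HOX-PBX letters TGATTNAT in 7.87%, 8.75% and 4.5%. The ETS letters CCGGAAG were in 0.762% of higher, 1.25% of lower and 5.95% of all windows. The CTCF letters CNAGGGGGC were in 0.931% of higher and 0.625% of lower windows, against 2.22% of all. These shares are a description, since the sets also differed in base composition and position. The median GC content was 45.4% in higher, 45.2% in lower and 52.0% in all tested elements. Tested elements outside the promoter-TSS class held ACAATG in 20.3%, CAGATG in 23.6%, AGGTCA in 19.1% and ACATTCC in 5.0% of their windows.

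The called elements lay mostly far from promoters. Of the higher ones 622 were intergenic and 509 intronic, and of the lower ones 169 and 133. Only 13 higher elements (1.1%) and 7 lower ones (2.19%) were of the class promoter-TSS, which made up 20.8% of the elements tested. The median distance to the nearest transcription start site (TSS) was 65445 bp for higher, 63678 bp for lower and 11020 bp for all tested elements. The share more than 50000 bp away was 56.1%, 57.2% and 27.3%.

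Accessibility at the genes that define the pMN domain moved little near their start sites, and the elements called there were distal. Of 34 tested elements nearest Olig2, Olig1 and Nkx6-1, 2 were called higher and 0 lower, beside 3.6% and 0.975% of all elements. The median log2 fold change over all tested elements of a gene was 0.27 for Olig2, 0.29 for Olig1 and 0.22 for Nkx6-1. The element at the first intron of Olig2 (chromosome 16, 91224754 to 91227830) had 1823, 1877 and 2128 normalized counts in the day 5 samples from 100 nM SAG and 1974 and 1959 in those from 500 nM. At day 6 it had 2361 and 2338 at 100 nM and 2302 and 2298 at 500 nM. All day 6 samples were above all day 5 samples, but the log2 fold change was 0.25 (0.1 after centering) with an adjusted p of 0.0107 (limma), short of both thresholds. An intergenic element 40921 bp before the Olig2 start (91184327 to 91184932) was called, with 147.8, 132.4 and 135.9 counts at 100 nM and 112.6 and 113.6 at 500 nM on day 5. It had 259.1, 350.2, 227.5 and 390.0 at day 6, a log2 fold change of 1.24 (limma adjusted p = 0.000661), and the days did not overlap. Of the 9 tested elements nearest Olig2 this was the one called. Among the 7 nearest Olig1, a related bHLH gene of the same locus, 1 was called, an intergenic element 42875 bp after its start (91312092 to 91313197), from 172.8 ± 38.4 (SD, n = 5) to 380.7 ± 28.1 (SD, n = 4). None of the 18 tested elements nearest Nkx6-1, a homeodomain factor shared by the ventral domains, passed 2-fold. The largest of them, an intergenic element 73586 bp after the start, went from 335.2 ± 64.3 to 643.1 ± 82.1 with a log2 fold change of 0.98 (limma adjusted p = 0.000519). The Nkx6-1 promoter element had 2259 ± 39.5 and 2586 ± 59.6 counts, 0.20 on the log2 scale and 0.04 after centering (limma adjusted p = 0.013).

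The list of domain identity factors, which pattern the ventral neural tube by mutual repression, had 91 tested elements near 11 of its 12 genes. Of these, 5 (5.49%) were called higher and 2 (2.2%) lower, beside 3.6% and 0.975% of all elements. The median log2 fold change of the list was 0.11 beside 0.14 for all elements. In addition to the Olig2 and Olig1 elements, an element near Dbx2, a gene of more dorsal progenitors, rose by 1.51 on the log2 scale, from 105.8 ± 29.6 to 285.2 ± 46.4. Near Irx3, a repressor of Olig2 active in the domains dorsal to pMN, elements moved both ways. The element 195495 bp before its start rose from 503.6 ± 167.3 to 1397 ± 248.2 (1.58) and the one 257633 bp before it from 551.6 ± 107.5 to 1312 ± 134.9 (1.28). The elements 214844 bp and 52451 bp before the start fell by 1.19 and 1.01, the first from 148.9 ± 12.1 to 67.98 ± 23.8. The element nearest the start site of each identity gene gave no call, with log2 fold changes between -0.57 for Foxa2, the floor plate factor, and 0.31 for Olig1. The Foxa2 promoter element had 405.9 ± 100.3 at day 5 and 276.8 ± 55.4 at day 6 (limma adjusted p = 0.0287), and the days overlapped. The promoter elements of Pax6 and Nkx2-9 were at 0.11 and 0.14 and turned to -0.05 and -0.01 after centering, and those nearest Irx3 and Nkx6-2 from 0.06 and 0.13 to -0.09 and -0.02. No element carried the name of Nkx2-2, whose intronic elements are annotated to Nkx2-2os.

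Summed counts of elements within 5000 bp of marker genes were compared with the labels. The pMN markers Olig2, Olig1 and Nkx6-1 summed to between 5344 and 5931 in day 5 pMN samples and between 6529 and 6706 at day 6. At day 6 the ranges were 3617 to 4752 in p2, 1809 to 2755 in p0-1 and 4248 to 4550 in p3, all below pMN. The list of p3 and floor plate markers ranged from 4204 to 4896 in day 6 pMN and from 6183 to 7556 in day 6 p3. The list of p2 and p0-1 markers ranged from 9460 to 12310 in day 5 pMN and from 10220 to 13560 in day 6 pMN. It had 3 of 36 tested elements higher and 2 lower. At day 6 its range was 14210 to 19470 in p0-1 but 10320 to 14110 in p2, so this list did not separate pMN from p2. Of the tested elements, 2 of 34 of the pMN list and 1 of 36 of the p3 and floor plate list were called higher, and 0 lower. Over all elements 3.6% were called higher and 0.975% lower. Neuromesodermal progenitor (NMP) markers were at 1451 to 1661 in day 6 pMN against 9513 to 11180 in NMP samples of day 3. None of these lists was at 0 in any sample. Markers of postmitotic motor neurons went from a range of 3661 to 3950 at day 5 to 4180 to 4482 at day 6 in pMN, with 1 of 23 tested elements called higher and 0 lower. In NMP this list stood at 6579 to 7704, above pMN, and Chat had no element within 5000 bp. In p2 that list was at 3350 to 3904 and then 3515 to 4610, and in p0-1 at 3611 to 4096 and then 3821 to 4659. Ventral interneuron markers had 0 of 18 elements called and ranged from 3333 to 3600 and from 3379 to 3820. Mesoderm, neural crest and pluripotency markers had 0 of 15 called, with 2330 to 2621 and 2404 to 2549. Whether neurons retained by the sort had a part in the results below was not tested.

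The RA pathway list had the highest share of higher elements among 18 gene lists. Of 55 tested elements near 17 of its genes, 8 (14.5%) were called higher and 1 (1.82%) lower, beside 3.6% and 0.975% of all elements, while its median of 0.09 was below that of all elements. The dishes held RA from day 3 at both time points. Cyp26b1 and Cyp26a1 encode enzymes that degrade RA. Of 7 tested Cyp26b1 elements, 3 were called higher, including its promoter element (chromosome 6, 84593917 to 84595101). The promoter had between 292.1 and 421.8 counts at day 5 and between 678.4 and 764.7 at day 6, a log2 fold change of 1.07 (0.92 after centering). An element in intron 20 of the neighbouring Exoc6b (84640270 to 84641379) rose from 271.3 ± 64.3 to 1129 ± 145.7, a log2 fold change of 2.10 (limma adjusted p = 4.83e-05). A further one there (84630144 to 84630898) rose from 115.4 ± 11.7 to 336.6 ± 42.9. An intergenic element 154142 bp after the Cyp26a1 start rose by 1.50, from 68.43 ± 13.99 to 188.4 ± 8.17. Near Dhrs3, which reduces retinaldehyde to retinol, 1 element rose by 1.22. The promoter element of Stra6, a membrane receptor that takes up retinol, fell by 1.27 on the log2 scale, from 227.8, 206.0, 168.7, 230.2 and 229.0 to 64.55, 103.3, 75.15 and 119.1. So the named calls of the RA list lay at genes of RA breakdown, retinaldehyde reduction and retinol uptake, and the one of uptake had the opposite sign.

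**Figure D2:**
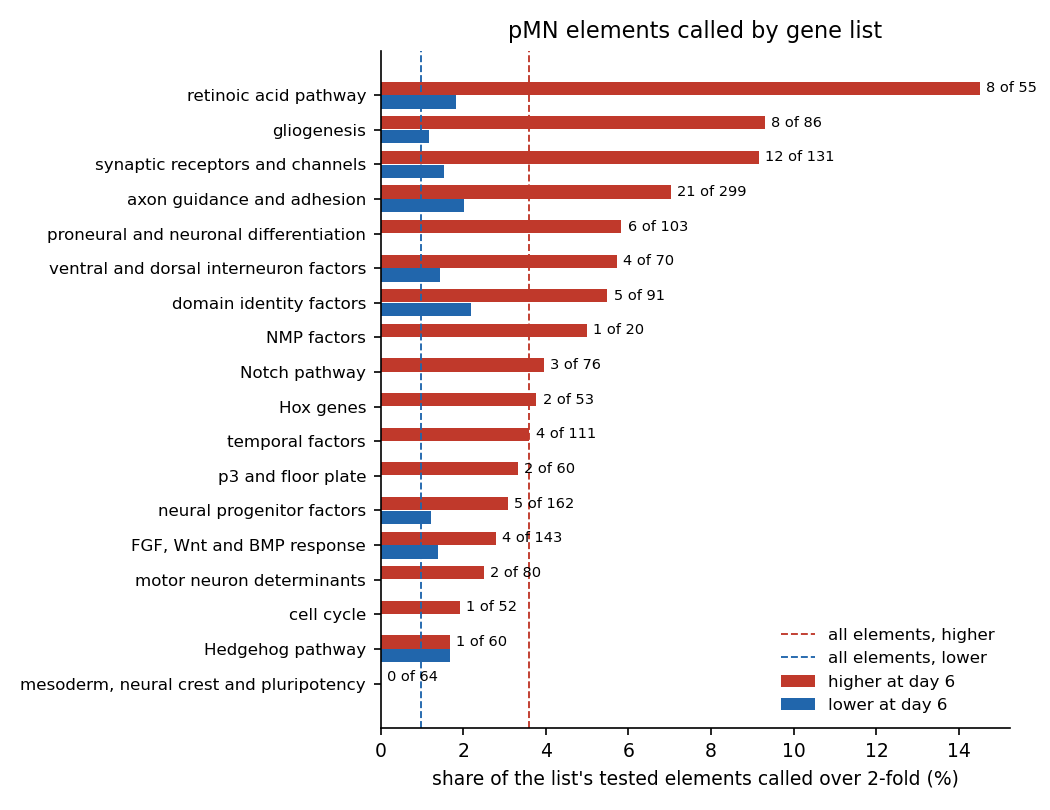
Bars give, for each of 18 gene lists, the share of tested pMN elements called higher (red) or lower (blue) at day 6 by over 2-fold, with the number higher of the number tested. Dashed lines mark the shares over all elements, 3.6% and 0.975%, and the RA list has the longest red bar, 8 of 55.

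The list of proneural and neuronal differentiation genes had the highest median log2 fold change of the lists, 0.38 (0.23 after centering), beside 0.14 for all elements. Of 103 elements 6 (5.83%) were called higher and 0 lower, beside 3.6% and 0.975% of all elements. Other lists, such as the temporal factors and the Notch pathway, also had 0 lower. Sox11, a SOX factor of newborn neurons, had 2 of 7 elements called and Nhlh2, a neuronal bHLH factor, 1 of 4. Among motor neuron determinants 2 of 80 elements (2.5%) were called higher and 0 lower. They were an element 32803 bp from Lhx3, a LIM factor of motor neurons, from 461.3 ± 85.9 to 937.4 ± 239.9, and 1 in intron 1 of Foxp1, a factor of limb-level motor columns, from 69.37 ± 21.4 to 163.9 ± 44.5.

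The Notch pathway, which holds progenitors undifferentiated, had 3 of 76 elements higher (3.95%) and 0 lower, beside 3.6% and 0.975% of all elements. An element 340963 bp before Jag1, a Notch ligand, rose from 133.0 ± 13.97 to 464.2 ± 43.4, a log2 fold change of 1.80. Heyl and Hey1, Notch target genes of the bHLH class, had 1 element each, at 1.38 and 1.11. The list of cell cycle genes had 1 of 52 elements called higher (1.92%) and 0 lower, in intron 3 of Cdk6, at 1.36.

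Gliogenesis genes had 8 of 86 elements higher (9.3%) and 1 lower (1.16%), beside 3.6% and 0.975% of all elements. Their median of 0.14 was equal to that of all elements. Nfia, which promotes the switch from making neurons to making glia, had 2 of 10 elements called, both in its intron 2. The first (chromosome 4, 97805891 to 97807098) had 202.9, 137.9, 103.0, 125.7 and 104.6 counts at day 5 and 465.3, 373.7, 402.8 and 407.5 at day 6, a log2 fold change of 1.67 (limma adjusted p = 0.000193). The second rose from 380.3 ± 54.5 to 813.4 ± 37.9. Elements near Ptprz1 (1.57), the glutamate transporters Slc1a3 (1.17) and Slc1a2 (1.16), Plpp3 (1.08 and 1.01) and the Fabp7 promoter (1.02), a radial glia gene, also rose. The Fabp7 promoter had between 117.2 and 182.9 counts at day 5 and between 274.6 and 329.3 at day 6. The element in intron 1 of Tnc, an extracellular matrix gene of glia, fell by 1.48.

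Of 111 elements near temporal factors, which mark early and late progenitors, 4 at Nfia and Nr2f1 were higher (3.6%) and 0 lower. Over all elements 3.6% were higher and 0.975% lower. The element 938048 bp before Nr2f1, an orphan nuclear receptor, had 105.6, 60.69, 105.7, 43.61 and 91.08 counts at day 5 and 386.4, 537.1, 315.6 and 649.2 at day 6. Its log2 fold change was 2.57 (limma adjusted p = 0.000208), and a neighbour 939758 bp away rose by 1.84. Neural progenitor factors had 5 of 162 higher (3.09%) and 2 lower (1.23%). The higher ones included elements near Tead1 (1.52), Pou3f4 (1.29) and Sox3 (1.11). Those lower were at Sox1, a progenitor SOX factor, and Prom1. The Sox1 element, in intron 1 of Sox1ot, fell by 1.83, from 283.6, 435.9, 286.8, 629.8 and 339.1 to 130.0, 92.02, 147.3 and 73.57.

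HOX genes, which set position along the body axis, had 2 of 53 elements higher (3.77%) and 0 lower, beside 3.6% and 0.975% of all. One, annotated to Hoxa4, lies in intron 2 of its neighbour Hoxa3, with 167.4, 180.2, 85.25, 135.9 and 72.14 counts at day 5 and 928.7, 416.9, 722.5 and 270.9 at day 6 (2.16). At day 6 the samples of replicate 2, with 928.7 and 722.5, were above those of replicate 3. The Hoxc4 element rose by 1.08. The Hedgehog pathway had 1 higher and 1 lower of 60 (1.67% each). The element near Hhip, a Hedgehog-binding inhibitor, went from 90.1 ± 17.6 to 182.5 ± 27.6 (1.05) and was under 2-fold after centering, at 0.89. The element 355573 bp before Gli3, the pathway's main repressor, fell by 1.42 and is described with the other cell types below. Of 143 elements near FGF, Wnt and BMP response genes, 4 were higher (2.8%) and 2 lower (1.4%). The higher ones were near Id4 (1.21 and 1.10), Dusp6 (1.09) and Wnt5a (1.00), and the lower ones near Spry2, a feedback inhibitor of FGF signalling (-1.38), and Nkd1 (-1.06).

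The 20 elements of NMP factors had 1 higher (5%), near Sall4 at 1.45, and 0 lower, beside 3.6% and 0.975% of all elements. p3 and floor plate genes had 2 of 60 higher (3.33%), among them 1 near Spon1 (1.40), and 0 lower. Ventral and dorsal interneuron factors had 4 of 70 higher (5.71%) and 1 lower (1.43%), with Lmx1a, a roof plate LIM factor, among both. An element 165615 bp after the Lmx1a start rose by 1.61 and one in its intron 2 fell by 1.71. Tlx3 had 2 higher elements and Bcl11b 1. The list of mesoderm, neural crest and pluripotency genes had 0 of 64 called by limma, with 20 at an unadjusted p under 0.05.

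Axon guidance and adhesion genes had the most calls of the lists, 21 higher (7.02%) and 6 lower (2.01%) of 299, with 4 higher ones over 4-fold. Over all elements 3.6% were higher and 0.975% lower. Cdh11, a cadherin, had 4 of 14 elements called higher. The strongest, 679056 bp after its start (chromosome 8, 102105615 to 102106495), had 42.99, 41.38, 28.42, 28.39 and 22.54 counts at day 5 and 415.1, 239.4, 342.7 and 217.2 at day 6, a log2 fold change of 3.20. A neighbour (102103586 to 102104338) rose by 2.49. Epha5, an ephrin receptor, had 3 of 8 elements called, and the largest, 822704 bp before its start, had 257.9, 167.4, 226.5, 96.34 and 131.7 counts and then 1502, 1304, 1080 and 1049 (2.94, limma adjusted p = 1.16e-05). An element in intron 7 of Dcc, the netrin receptor, rose by 2.60. Elements near Robo1 (1.63), Neo1 (1.62), Ephb2 (1.30) and Sema6a (1.26) were also called higher. Near Cdh6 2 elements fell, by 1.68 and 1.18, and 1 rose by 1.15 with overlapping days. The element near Efnb1, an ephrin, fell by 1.76, from between 204.8 and 266.9 to between 56.05 and 84.5, and those near Cdh2 (-1.40), Epha3 (-1.05, with overlapping days) and Sema3a (-1.03) were lower too. A further Epha3 element rose by 1.37.

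Synaptic receptors and channels had 12 of 131 elements higher (9.16%) and 2 lower (1.53%), beside 3.6% and 0.975% of all elements. Nrxn3, a presynaptic adhesion gene, had 3 of 23 higher, the largest in its intron 13 from 86.35 ± 17.3 to 296.0 ± 43.5 (1.78), and 1 lower in intron 8 (-1.14). Kcnq3 (1.59), Cacna1e (1.41), Dlg2 (1.39 and 1.08), Gria1 (1.21) and Nlgn1 (1.17) also had elements called higher, and Nlgn1 had 1 lower (-1.03). Single samples were left out for the 46 elements that the rule for named elements gave, and not for the others named here. Among the 46, the calls of the Irx3 element 214844 bp before its start, Hhip, the stronger Id4 element, Spry2, Sall4, Spon1 and the lower Nrxn3 element were lost when 1 or another single sample was left out. Counted over all genes, Fut8, a fucosyltransferase, had the most higher elements, 5 of 10 between 1.18 and 1.83. Cdh11, Zfp608, Npas3 and Lhx1os had 4 each. No gene had more than 2 lower elements, and 19 genes shared that number, among them Mir21b, Zfand3, 4933430N04Rik, 1700129C05Rik, Cdh6 and Bmp2.

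The largest increases came from elements with low counts at day 5, which passed the filter on the mean through their day 6 samples. A ranking by ratio favours such elements, so their low day 5 counts are a description. The intergenic element 25903 bp before Nsmce1 (chromosome 7, 125516843 to 125517849) had 45.25, 21.15, 47.96, 16.23 and 25.25 counts at day 5 and 521.7, 505.2, 445.9 and 453.1 at day 6. Its log2 fold change was 4.08, with a VST difference of 3.63 ± 0.199 (SE) and an adjusted p of 1.22e-05 (limma). An element over the single exon of Olfr509, an olfactory receptor gene, went from 36.92 ± 22.4 to 496.6 ± 172.6 (3.95). The element 179055 bp from Mir125b-1, a microRNA gene, had 62.6, 36.78, 15.99, 36.51 and 21.64 counts at day 5. At day 6 replicate 2 had 717.2 and 682.4 and replicate 3 had 242.2 and 239.4, so the replicates differed while the days did not overlap (3.69). The element in intron 1 of Dlg1 showed the same split, with 460.8 and 362.7 against 138.0 and 116.8 at day 6 (3.28). Intron 1 of Itpk1, near Mir1936, rose by 3.50, and elements near Gpr39, Cdh11 and Plxnc1 by 3.22, 3.20 and 3.19. The Gpr39 promoter element itself fell by 1.29.

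Among decreases, the strongest lay in an intergenic element 136833 bp after the start of Hs3st3b1, a heparan sulfate sulfotransferase (chromosome 11, 63784982 to 63785921). It had 302.4, 386.2, 369.4, 252.5 and 365.2 counts at day 5 and 45.72, 76.99, 29.06 and 56.05 at day 6, and fell by 2.70 (limma adjusted p = 5.09e-05). An element in intron 21 of Col4a1, annotated to Col4a2, both basement membrane collagen genes, fell by 2.30, from 188.9 ± 54.6 to 37.82 ± 9.23. Elements in introns of Chmp4c (-2.27), Tas1r2 (-2.21), Arhgef10 (-2.21) and Foxp1 (-2.12) and near Atp6v0a1 (-2.10) and Gm34637 (-2.06) followed. The Foxp1 locus thus had 1 intronic element higher and 1 lower.

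**Figure D3:**
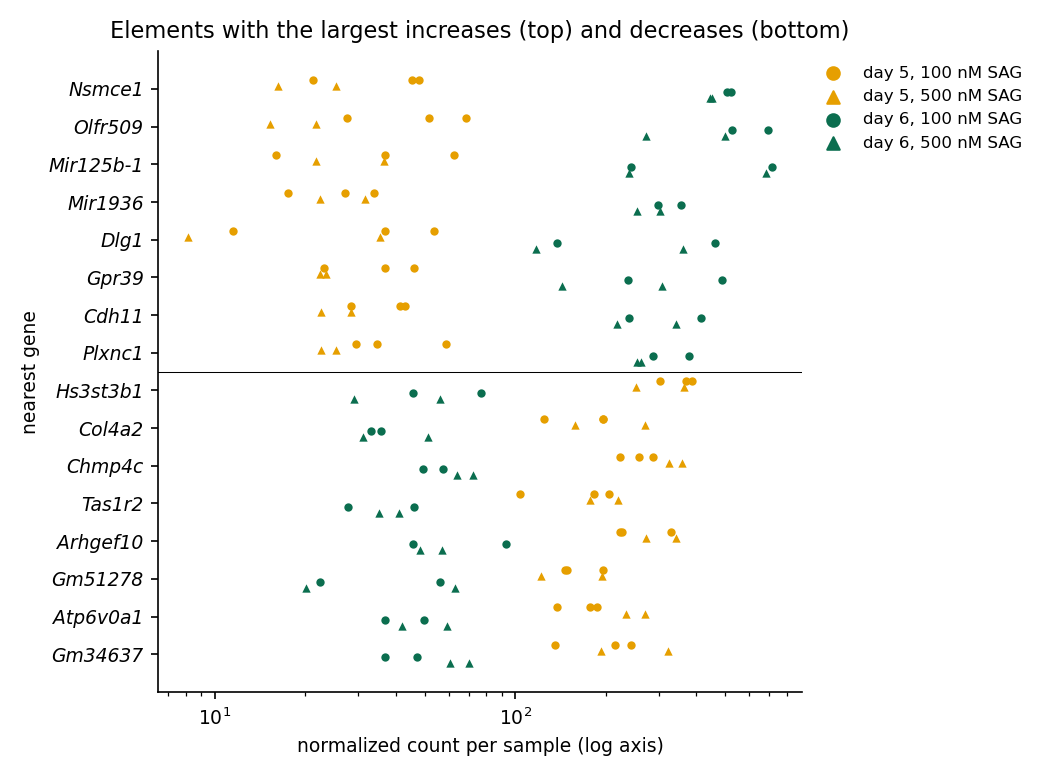
Each symbol is 1 pMN sample, with its normalized count on a log x axis, for the 8 strongest increases and the 8 strongest decreases without overlap of the days, named on the y axis by the nearest gene. Colour marks the day and shape the SAG concentration, and the day 6 samples of Mir125b-1 fall into 2 pairs, 717.2 and 682.4 for replicate 2 and 242.2 and 239.4 for replicate 3.

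Few promoters changed. The 13 higher promoter-TSS elements included those of Slc25a18 (1.67), Dcun1d4 (1.47), Sncg (1.45), Rcan2 (1.26, listed under the more distant Enpp5), Sstr3, a somatostatin receptor (1.19), Ddc, the decarboxylase of dopamine and serotonin synthesis (1.13), Cyp26b1 and Fabp7. The 7 lower ones included Angptl8 (-1.49), Gpr39, Stra6, Rfx6 (-1.10) and the anti-apoptotic gene Bcl2l1 (-1.06). The share of all reads that fell in promoter-TSS elements averaged 32.5% over the day 5 samples, with an SD of 1.56 (n = 5), and 32.7% over the day 6 samples, with an SD of 1.80 (n = 4). An exact permutation test of days within SAG concentrations gave p = 0.783 for the difference of 0.147 percentage points (two-sided, 60 arrangements, smallest possible p 0.0333). Replicate 2 was between 34.0% and 34.4% and replicate 3 between 31.0% and 31.2% at both days and concentrations.

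SAG concentration made no called difference to these changes. With limma, 0 of 32812 elements (0%) had a day effect that differed between 500 and 100 nM by over 2-fold, also with the replicate block (0%). Without the block 58 had an unadjusted p under 0.05, far below the share of 0.05 that no effect would give. That fit was therefore conservative, and its 0 calls cannot show that the changes were equal. limma voom also called 0. All 1181 higher elements had a higher mean at day 6 at both concentrations, with a median log2 fold change of 1.21 at 100 nM and 1.40 at 500 nM. The 320 lower ones were lower in both, with medians of -1.16 and -1.29. These elements were chosen on the same samples, so the agreement in sign is a description.

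The changes continued from day 4 in most higher elements. The median over the 1181 of the mean normalized count was 9.52 in NMP at day 3, 36.0 in pMN at day 4, 119.0 at day 5 and 314.0 at day 6. The day 4 mean was below the day 5 mean in 1145 of 1181 (97.0%), beside 72.2% of all tested elements, and above the day 6 mean in 3. The strongest Nr2f1 element had 3.52 counts at day 4. The median of the lower elements was 15.1 in NMP, 291.0 at day 4, 226.0 at day 5 and 95.7 at day 6. Day 4 was below day 5 in 119 of the 320 (37.2%), beside 72.2% of all tested elements. It was above day 6 in 298 (93.1%), beside 24.7% of all tested elements. Both sets were chosen on their day 5 and day 6 values, so these shares are a description. In 34 of the 320 (10.6%) the NMP mean was above the day 6 mean, beside 42.0% of all tested elements. The Hs3st3b1 element had 445.9 counts at day 4 and 7.72 in NMP, and the Col4a2 element 640.0 and 8.35.

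**Figure D4:**
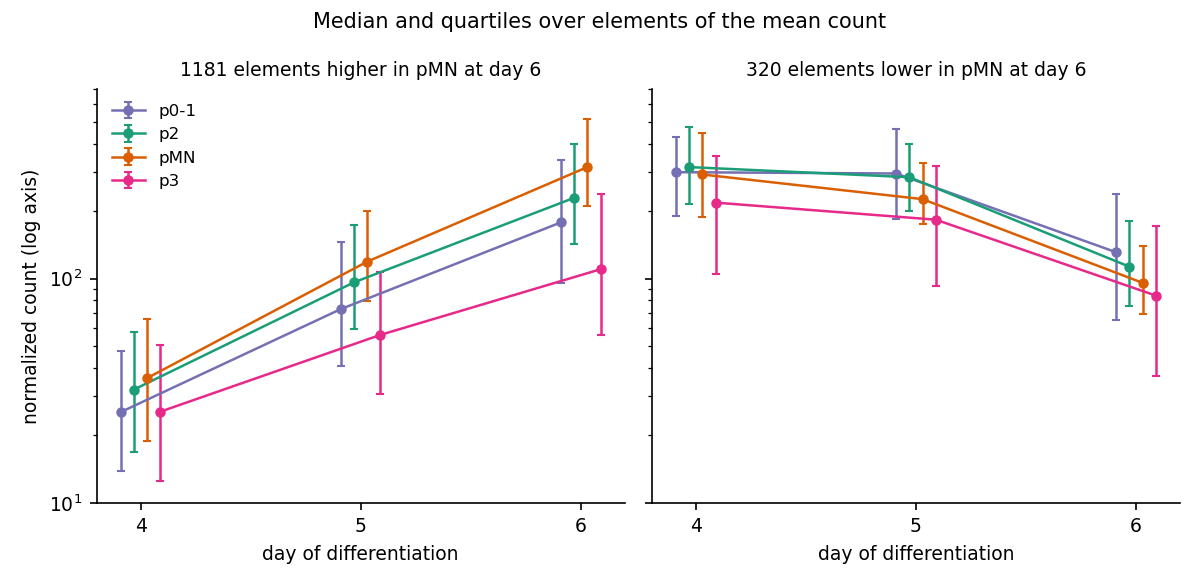
Points are medians and bars quartiles, over the 1181 elements higher in pMN at day 6 (left) and the 320 lower (right), of the mean normalized count per cell type on a log y axis against the day of differentiation. pMN rises from 36.0 at day 4 to 314.0 at day 6 in the left panel and goes from 291.0 to 95.7 in the right one, and the other cell types move the same way.

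The other progenitor types were fitted on their own samples over the same interval. They share no libraries with pMN. The p3 samples and the p2 samples at 100 nM SAG came from dishes of the same concentrations as pMN, and the p2 samples at 10 nM and all p0-1 samples did not. In p2, the domain dorsal to pMN, 2.85% of the tested elements were called higher and 2.03% lower at day 6. Of the 1181 elements higher in pMN, 584 were called higher in p2, 49.4% of the pMN list and 63.3% of the p2 list of 923. Of the 320 lower in pMN, 220 (68.8%) were called lower in p2, 33.4% of 659. The median log2 fold change of the higher elements was 1.14 in p2 beside 1.29 in pMN, and of the lower ones -1.34 beside -1.23. In p0-1, further dorsal, 2.55% were called higher and 2.21% lower, and the shared calls were 434 higher (36.7% of the pMN list, 54.1% of 802) and 146 lower (45.6%, 21.1% of 693), with medians of 1.11 and -1.20. In p3, the most ventral type, 2.65% were called higher and 0.823% lower, and 215 of the higher elements (18.2% of the pMN list, 25.2% of 853) and 50 of the lower ones (15.6%, 18.9% of 265) were shared. With the replicate block p3 had 1644 higher (5.1%) and 553 lower calls (1.72%), and 265 and 106 were shared. The medians in p3 were 0.91 and -1.07. Part of these lists could not be called elsewhere, since 913, 695 and 494 of the 1181 elements passed the filter on the mean in p2, p0-1 and p3.

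Some of the strongest increases were also called in the other types. The Cyp26b1 element in Exoc6b rose by 2.29 in p2, 2.38 in p0-1 and 2.54 in p3, and the Nsmce1 element by 3.81 in p2 and 3.38 in p3. The Olig2 distal element was at 47.3 and 77.68 counts in p2, 16.96 and 17.27 in p0-1 and 29.48 and 64.66 in p3 at day 5 and day 6, all below the 306.7 of day 6 pMN.

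Differences of the day effect itself were then tested in 1 model per pair of types. Between pMN and p2, limma called 0 of 32624 elements (0%), with 1875 at an unadjusted p under 0.05 and 0 by voom. With the replicate block 4 were called (0.0123%). Between pMN and p0-1, 27 elements (0.0838%) were called, 20 with the more positive change in pMN, and 316 (0.981%) with the block. Between pMN and p3, 17 (0.0519%) were called, 10 of them more positive in pMN, and 766 (2.34%) with the block, 373 and 393. These counts rested on single samples. Without 1 sample the difference from p0-1 gave between 1 and 39 elements, with 1 without pMN day 5 500 nM replicate 3 and 1 without p0-1 day 5 10 nM replicate 1, and neither of these calls was more positive in pMN. The difference from p3 gave between 0 and 84, with 0 without pMN day 5 500 nM replicate 3, pMN day 6 100 nM replicate 2 or p3 day 5 500 nM replicate 2. The calls against p3 named next, and those near Kcna4 and Pctp against p0-1, were therefore lost without those samples. As only 1 call against p0-1 remained each time, at least 1 of those near Gli3 and Plppr5 was lost as well.

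Near Kcna4, a potassium channel gene, an intergenic element (chromosome 2, 107321524 to 107322463) had between 79.04 and 121.4 counts in day 5 pMN and between 352.1 and 495.0 at day 6. In p3 it had 40.37 to 54.75 and then 15.54 to 72.55, and in p0-1 21.64 to 44.49 and then 20.01 to 75.22. The change in pMN exceeded that in p3 by 2.40 on the log2 scale (limma adjusted p = 0.00487) and that in p0-1 by 1.58 (limma adjusted p = 0.00733). Of the groups in these fits only day 6 pMN had a mean above 100 counts, 417.3. The element therefore passed the filter through the group where it was high, and its counts in p3 and p0-1 were low. In p2 it was at 33.36 to 79.88 and then 72.21 to 210.2. An element near 1700113H08Rik went from between 58.82 and 162.9 to between 563.1 and 1041 in pMN and stayed between 12.46 and 56.06 in p3, a difference of 2.25 (limma adjusted p = 0.00303). The rise was not particular to pMN, with medians of 54.95 and then 596.3 in p2 and of 46.11 and then 478.3 in p0-1. In p3 this element had means of 16.93 and 30.78, so it passed the filter on the mean through pMN. The Pctp element had 192.5 ± 21.5 and 230.9 ± 33.2 in pMN and 121.6 ± 16.8 and 46.25 ± 22.9 in p0-1 (difference 1.69, limma adjusted p = 0.00733).

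The Gli3 element fell from between 272.3 and 450.6 counts in day 5 pMN to between 75.9 and 207.1 at day 6, and in p0-1 it had 725.6 to 992.9 and then 665.2 to 1068. The difference of the changes was -1.43 (limma adjusted p = 0.00183). In p2 the element had a median of 645.7 and then 448.4, and in p3 of 52.03 and then 7.03, so at both days its median went down from p0-1 through p2 and pMN to p3, with overlapping ranges of p0-1 and p2. The Plppr5 element had the same order of medians, with 516.2 ± 88.7 and then 172.4 ± 58.3 in pMN beside 891.8 ± 117.3 and 783.5 ± 97.5 in p0-1 (difference -1.38). The elements near Hmgn3 and Tmem132e rose in p3 from 55.85 ± 10.9 to 173.1 ± 37.1 and from 65.27 ± 14.6 to 161.9 ± 14.4. In pMN they were at 104.1 ± 11.9 and 105.1 ± 9.28, and at 185.8 ± 19.3 and 163.8 ± 10.5, giving differences of -1.54 and -1.48. The Hmgn3 element also had higher medians at day 6 in p2 (130.4 and then 218.5) and p0-1 (99.8 and then 151.4). The Tmem132e element had medians of 103.2 and then 144.8 in p2 and of 28.14 and then 25.63 in p0-1.

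**Figure D5:**
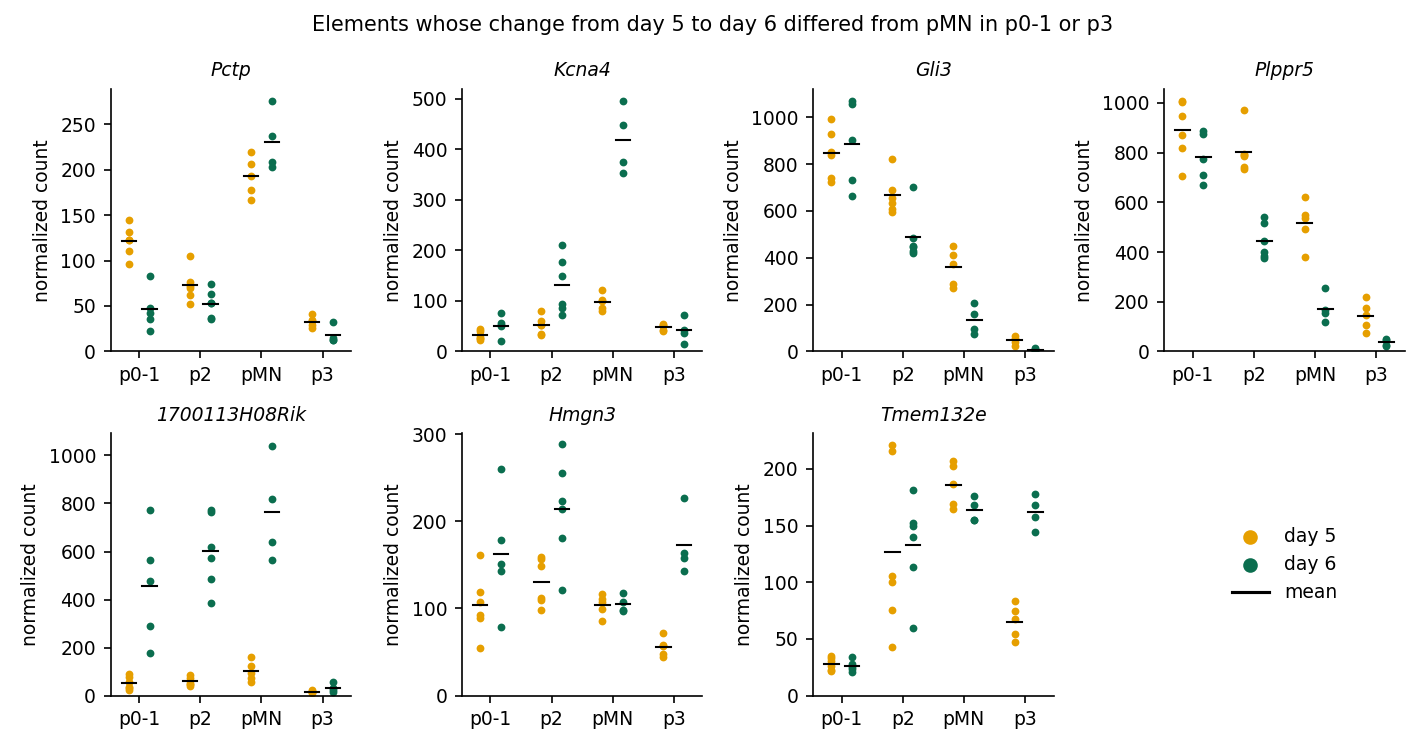
Each panel shows 1 element, named by the nearest gene, with the normalized count of every sample on the y axis by cell type on the x axis, day 5 in orange, day 6 in green and means as bars. At Kcna4 the 4 day 6 pMN samples, between 352.1 and 495.0, lie above all others, and at Gli3 levels go down from p0-1 to p3.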

How the data were processed

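CaTS-ATAC gave the accessibility of chromatin in progenitors made from mouse ES cells. Reads were aligned to mm10 and peaks called with MACS through nf-core/atacseq by the authors, who counted reads per consensus element for DESeq2. The deposited values are log2 values, the variance-stabilizing transformation (VST) of normalized counts, and the deposited annotation gives coordinates, class and distance to the nearest TSS, in bp, for each element. The VST was inverted, and below 1000 reads 100% of what was recovered was whole, with a largest distance of 5.98e-11. Depth was between 18619506 and 26704636 reads in elements in the 9 pMN samples. The precision given is the spread between samples.

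Day 6 was compared with day 5 with limma 3.58.1 in R 4.3.3, on VST values, with a mean-variance trend, SAG as a covariate and only the samples compared. Elements had a mean above 100 normalized counts, p-values were two-sided and adjusted by Benjamini-Hochberg over all of them, and a call needed over 2-fold or 4-fold at an adjusted p under 0.01. Fold changes used counts plus 1. The fit was tested on simulated data drawn independently for each sample. They held no effect shared by samples of a replicate number, so that test cannot show how such an effect alters false calls. Differences between 100 and 500 nM and between cell types were interaction terms. Motifs were counted in 300 bp windows with Python 3.11.15, and RefSeq's GRCm38 gave the sequences.

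The replicate numbers of the titles were taken to pair the samples. The descriptions give other numbers for the pMN samples of day 5 at 500 nM and of day 6, and a block by those numbers was a further alternative. Across days, deviations from the group means correlated between 0.429 and 0.682 in the 8 pairs with the same number and between -0.682 and 0.243 in the 12 pairs with different numbers. The authors describe replicates as independent differentiations, which the labels do not state. Within a day, the 4 pairs with the same number at different SAG concentrations correlated between 0.624 and 0.849. The main fit and the SDs treat such samples as independent. The fit with the number as a block was run as an alternative.

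The comparison, the gene lists and the markers were chosen with earlier results of these data known. Named were the 8 largest changes in each direction without overlap, the largest call in each direction of each list, the promoter-TSS element of each identity gene, the 6 genes with the most calls in each direction (ties broken by summed fold change, a choice made after seeing them) and the 2 largest differences in each direction from each cell type. The nearest elements of identity genes without a promoter-TSS element, the other called elements of the lists, the promoters and the RA window were named after their values were seen. Some elements that these rules name are not reported here. Alternatives covered the filter, centering, the threshold, the trend, voom, the samples in the fit, the block, GC content and leaving out each sample.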

Additional observations from a re-analysis of the deposited data

Results flagged for a closer look

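The change from day 5 to day 6 differed between cell types, by an interaction term in limma, at 27 elements for pMN against p0-1 and 17 for pMN against p3. With the replicate number as a block these were 316 and 766, and 4 for pMN against p2. The pMN change was the more positive one near Pctp (1.69) and Kcna4 (1.58) against p0-1 and near Kcna4 (2.4) and 1700113H08Rik (2.25) against p3. It was the more negative one near Gli3 (-1.43) and Plppr5 (-1.38) against p0-1 and near Hmgn3 (-1.54) and Tmem132e (-1.48) against p3, all as differences of log2 fold changes. No condition held 4 or more samples, so single samples were not tested for standing apart.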

How the results depend on the processing

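The numbers of elements changed over 2-fold and 4-fold stayed within 1.5 times of 1501 and 113 with the block, centering, voom, no trend, all 67 samples in one fit, no SAG term and VST fold changes. They moved with the filter, to 5398 and 465 with none and 2667 and 206 with a mean above 50, where more elements were tested. They moved to 247 and 64 with the 100 nM samples only and to 72 and 59 with the 500 nM samples only, which are fewer samples. Without 1 sample they ranged from 1239 to 1603 and from 96 to 136.

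The difference from p2 gave 0 elements, 4 with the block and 16 with the block and centering, and 0 without any 1 sample. The difference from p0-1 gave 27, 316 with the block, 17 with centering, 259 with both, 12 with no filter and 13 with voom, and 1 to 39 without 1 sample. The omissions that moved it by over 1.5 times were the day 5 samples of p0-1 at 0 and 10 nM (replicates 1 and 2) and of pMN at 100 and 500 nM (replicates 2 and 3), the day 6 samples of p0-1 at 0 nM (replicate 2) and 10 nM (replicates 1 and 2), and those of pMN at both concentrations (replicates 2 and 3). The difference from p3 gave 17, 766 with the block, 809 with both, 71 with no filter and 11 with voom, and 0 to 84 without 1 sample. There the omissions were the p3 samples of day 5 at 100 nM (replicates 1 and 3) and 500 nM (replicate 2) and of day 6 at 100 nM (replicates 2 and 3), and the pMN samples of day 5 at 100 and 500 nM (replicates 2 and 3) and of day 6 at 100 nM (replicates 2 and 3) and 500 nM (replicate 2). The difference between SAG concentrations gave 0 throughout, 0 to 0 without 1 sample. The share of reads in promoter-TSS elements differed by 0.147 percentage points, by -0.312 over elements with a mean above 100 and by -0.439 to 0.693 without 1 sample (below 0 without replicate 3 of day 5 or replicate 2 of day 6, at either concentration), with 0.0464 with the replicate block.

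The block by the titles' replicate numbers gave 1873 and 138 elements, and by those of the descriptions 1665 and 114. Of 46 named elements none lost or gained a call under either block, and 25 lost their call with the 100 nM samples only and 32 with the 500 nM samples only. Pax6 turned to -0.05 with centering, -0.09 with the block and GC correction and -0.07 with the block and centering, and Nkx2-9 to -0.01, -0.08 and -0.05. Calls were also lost without 1 sample. Without day 5 100 nM replicate 2 these were Irx3 (lower element, -1.15), Id4 (1.2), Spry2 (-1.42), Sall4 (1.41) and Spon1 (1.36), and without day 5 500 nM replicate 2 Id4 (1.19), Spry2 (-1.49), Sall4 (1.31) and Spon1 (1.36). Without day 5 500 nM replicate 3 they were Irx3 (-1.17), Id4 (1.18), Spry2 (-1.26) and Spon1 (1.39), and without day 6 100 nM replicate 2 Irx3 (-0.97), Hhip (0.98), Id4 (1.04), Spry2 (-1.12) and Nrxn3 (lower element, -0.91). Without day 6 100 nM replicate 3 they were Sall4 (1.34) and Spon1 (1.18). Spry2 was further lost without day 5 100 nM replicate 1 (-1.41) or 3 (-1.34) and without day 6 500 nM replicate 2 (-1.13). Hhip was also under 2-fold with centering (0.89) and on the VST scale (0.96), and with the block once centered (0.96) or corrected (0.95). Spry2 was also lost without the variance trend (adjusted p = 0.0132) and Nrxn3 with all 67 samples in one fit (adjusted p = 0.0117). The cause of these changes was not tested.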
